A study of Mus musculus with 12 samples.

Results

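The effect of weekly prednisone on the heart transcriptome was compared between infarcted and sham-operated mice, as the difference of 2 differences. For each gene, the prednisone effect in sham hearts (prednisone minus vehicle) was subtracted from the prednisone effect in infarcted hearts, on the log2(TPM + 1) scale, and the result was read relative to the median gene. This difference is called the interaction here: a positive value means that the gene stood higher after prednisone, against vehicle, in infarcted hearts than in sham hearts. It uses all 12 libraries of the series, 3 from each of 4 groups, and it is a rule about samples, so that no gene was selected by it. TPM is the share of a library's transcripts that belongs to a gene, corrected for transcript length and scaled to a total of 1000000 per library.

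All 12 mice were male wild-type C57BL/6 and about 10 weeks old at treatment, and their age is also given as about 16 weeks. Each had sham surgery or surgery producing a myocardial infarction (MI). The 4 groups were sham with vehicle, sham with prednisone, MI with vehicle and MI with prednisone, and none carried an engineered allele. Prednisone, a synthetic glucocorticoid, was injected into the peritoneum at 1 mg/kg once a week at lights-on for 6 weeks, beginning 2 weeks after surgery, and myocardium was collected 24 hours after the last dose. The kind of infarction, its size and the region of myocardium sampled are not given in the sources used here. Each library is numbered as its own sample, and p-values measure the spread among these 3 samples per group.

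Prednisone is converted in the body to prednisolone, which binds the glucocorticoid receptor (encoded by Nr3c1), a transcription factor that also sets the phase of clock genes in peripheral tissues. The clock couples activators (Arntl, Clock) to repressors (Per and Cry genes, Nr1d1) and to output factors such as Dbp and Nfil3. After an infarction, lost muscle is replaced by a collagen scar made by fibroblasts, macrophages enter, and the surviving cardiomyocytes, which obtain most of their ATP from the respiratory chain, are remodelled.

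Every one of the 12 libraries showed abundant cardiomyocyte transcripts: the 10 cardiomyocyte markers summed to between 33924 and 55265 TPM. The sums were 33924 to 43384 TPM in MI vehicle and 46503 to 55265 in the other 9 libraries, without overlap. Transcripts that define lung and airway were also found in some libraries. The sum over 4 lung and airway markers was 6524 TPM in MI vehicle replicate 3, 9546 in MI prednisone replicate 2 and 1429 in MI prednisone replicate 3, against 0 to 375 in the other 9, and most of it came from Scgb1a1, a secreted protein of airway club cells. MI vehicle replicate 3 also had 14307 genes at 1 TPM or more, against 11690 to 12772 in the others. Correlations between replicates across genes were 0.891 to 0.957 in MI vehicle and 0.963 to 0.987 in the other groups. With the 3 libraries over 1000 TPM of lung markers left out, MI prednisone is replicate 1 alone and MI vehicle is replicates 1 and 2. All values of that fit, here and below, therefore rest on 1 MI prednisone mouse. The spread behind its counts and p-values comes from the other groups, so they are not a replicated check against the lung transcripts. Without the 3 libraries that exceeded 1000 TPM of lung markers, 2079 genes (15.8%) passed the interaction test, 836 higher (6.35%) and 1243 lower (9.45%), and 905 of them were among the 1180 that passed with all 12 libraries. Of the 65 calls among the genes named by rule, 10 were lost in that fit, at adjusted p-values of 0.0529 to 0.194 (limma) and with no change of sign: Cpt1a, Mmp14, Csf1r, Acaa2, Kcnh2, Naprt, Lrrn4, Col18a1, Tapbp and Plvap. Another 3 named genes passed only there: Klf9, Nampt and Ppargc1a.

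Of 13158 genes tested, 1180 (8.97%) passed the interaction test at an adjusted p under 0.05 (limma, Benjamini-Hochberg over all genes tested), 545 of them higher (4.14%) and 635 lower (4.83%). The median standard error of an interaction was 0.22. Between prednisone and vehicle, 3659 genes (27.8%) were called in infarcted hearts, 1820 higher (13.8%) and 1839 lower (14%). In sham hearts 12 genes (0.0912%) were called, 4 higher (0.0304%) and 8 lower (0.0608%). All 4 groups share 1 estimate of the spread, and a gene not called is not shown to be unchanged. The MI prednisone libraries also stood apart in transcript length, transcript class and atrial markers, described below. The part of each in these calls was not tested. Of the 545 higher genes, 525 were called in infarcted hearts, 1 in sham hearts and 19 in neither. Of the 635 lower genes, 621 were called in infarcted hearts and the other 14 in neither. The prednisone effects of the higher genes had a median of 0.74 in infarcted and -0.07 in sham hearts, and those of the lower genes had medians of -0.73 and 0.12.

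The group that stood farthest from the mean of the other 3 was MI prednisone for most called genes. It stood above the others for 328 of the 545 higher genes and below them for 487 of the 635 lower genes. MI vehicle was the outlying group for 199 higher genes, where it stood below, and for 135 lower genes, where it stood above. The 2 prednisone effects share no sample. Across the 13158 genes they had a Pearson r of 0.14 and a Spearman rho of 0.01, given as a description since genes are not independent. Their standard deviations across genes were 0.52 in infarcted and 0.26 in sham hearts.

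**Figure D1:**
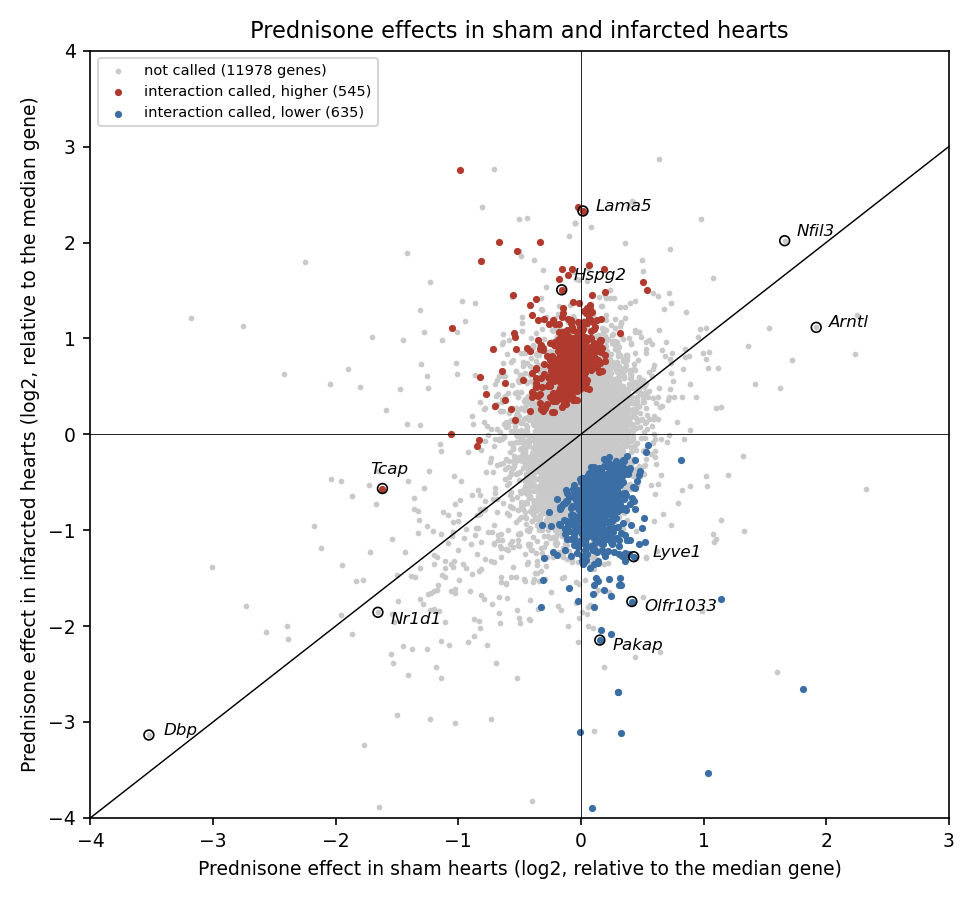
Prednisone effect in sham hearts (x axis) against infarcted hearts (y axis), log2 relative to the median gene; each point is 1 of 13158 genes, with the diagonal of equal effects, and 5 genes lie outside the axes. The 545 genes with a higher interaction (red) and the 635 with a lower one (blue) spread along the y axis, while the clock genes Dbp, Nr1d1 and Nfil3 lie near the diagonal.

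The balance of higher and lower calls depends on what the values are read against. Without centring on the median gene, the median interaction of all genes was -0.48, and 2797 genes passed (21.3%), 71 higher (0.54%) and 2726 lower (20.7%), of which 703 were among the 1180. The share of higher genes among the calls was 46.2% relative to the median gene and 2.54% without centring. The median prednisone effect without centring was -0.41 in infarcted hearts and 0.07 in sham hearts. TPM are shares, so these data do not show which reference corresponds to a constant amount of RNA. All values below are relative to the median gene, and a list median given below that turned without centring is named as such.

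The number of calls also depended on single libraries. It fell to 156 without sham vehicle replicate 1, 375 without replicate 2 and 182 without replicate 3. It was 164, 208 and 408 without sham prednisone replicates 1, 2 and 3, 378 and 272 without MI prednisone replicates 1 and 2, and 2162 without MI prednisone replicate 3. In the 12 fits that each left out 1 library, 45 of the 545 higher and 87 of the 635 lower genes were called every time. The 12 highest and 12 lowest of these with a mean of at least 5 TPM, apart from predicted genes and pseudogenes, are described further below.

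Of the 12 genes called in sham hearts 8 were clock genes, of which all but Per3 were also called in infarcted hearts. Dbp, a clock output factor, was at 75.2, 82.8 and 86.5 TPM with vehicle and 7.73, 6.61 and 5.44 with prednisone after sham surgery, and at 70.2, 72.1 and 81.9 with vehicle and 5.93, 5.95 and 4.84 with prednisone after MI. The 6 prednisone libraries, at 4.84 to 7.73 TPM, were far below the 6 vehicle libraries, at 70.2 to 86.5, with no overlap after either surgery. The prednisone effect was -3.52 ± 0.14 (SE) in sham and -3.14 ± 0.14 (SE) in infarcted hearts, and the interaction did not pass (interaction 0.39 ± 0.20 (SE), adjusted p = 0.242). Nfil3, a repressor of the same target sites as Dbp, moved the opposite way, from 2.39 to 3.36 TPM in the 6 vehicle libraries to 9.42 to 12.5 in the 6 prednisone libraries, and its interaction did not pass (interaction 0.36 ± 0.18 (SE), adjusted p = 0.226). Without centring the interactions of Dbp and Nfil3 turned to -0.08 and -0.11. Nr1d1, which represses Arntl, fell in both settings, by 1.66 in sham and 1.86 in infarcted hearts (interaction -0.20 ± 0.22 (SE), adjusted p = 0.582). Of the 12 genes called in sham hearts, 10 were also called in infarcted hearts, all in the same direction. That is 83.3% of the sham calls and 0.273% of the infarct calls. The other two were Per3, a period gene, and Tcap, a sarcomere gene described below.

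Within the list of 19 clock genes, 18 had an unadjusted p under 0.05 in sham hearts, 8 were called there, and 14 were called in infarcted hearts. Over all genes 0.0912% were called in sham and 27.8% in infarcted hearts. The interaction was called for 1 of the 19, where 8.97% of all genes were, so the count is near that share. The list median was -0.12 against -0.01 over all genes. That gene was Clock, the partner of Arntl, which was at 4.76, 5.65 and 4.59 TPM with vehicle and 7.67, 7.84 and 7.67 with prednisone after sham surgery, and at 6.24, 6.43 and 7.32 with vehicle and 3.08, 2.9 and 4.18 with prednisone after MI. Its sham prednisone values exceeded all sham vehicle values, whereas its MI prednisone values were below all other libraries (interaction -0.89 ± 0.20 (SE), adjusted p = 0.0288). Clock was called in 4 of the 12 fits that left out 1 library. It was not called after trends of transcript length and GC content were removed (-0.75). Arntl was at 1.87, 2.4 and 1.46 TPM with vehicle and 10.4, 8.9 and 12.4 with prednisone after sham surgery, and at 2.9, 3.75 and 8.26 with vehicle and 7.47, 8.65 and 8.45 with prednisone after MI. It rose with prednisone by 1.92 in sham and 1.12 in infarcted hearts, and the difference missed the threshold (interaction -0.80 ± 0.23 (SE), adjusted p = 0.0556). MI vehicle replicate 3 stood at the level of the prednisone libraries and apart from the other 2 mice of its group.

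**Figure D2:**
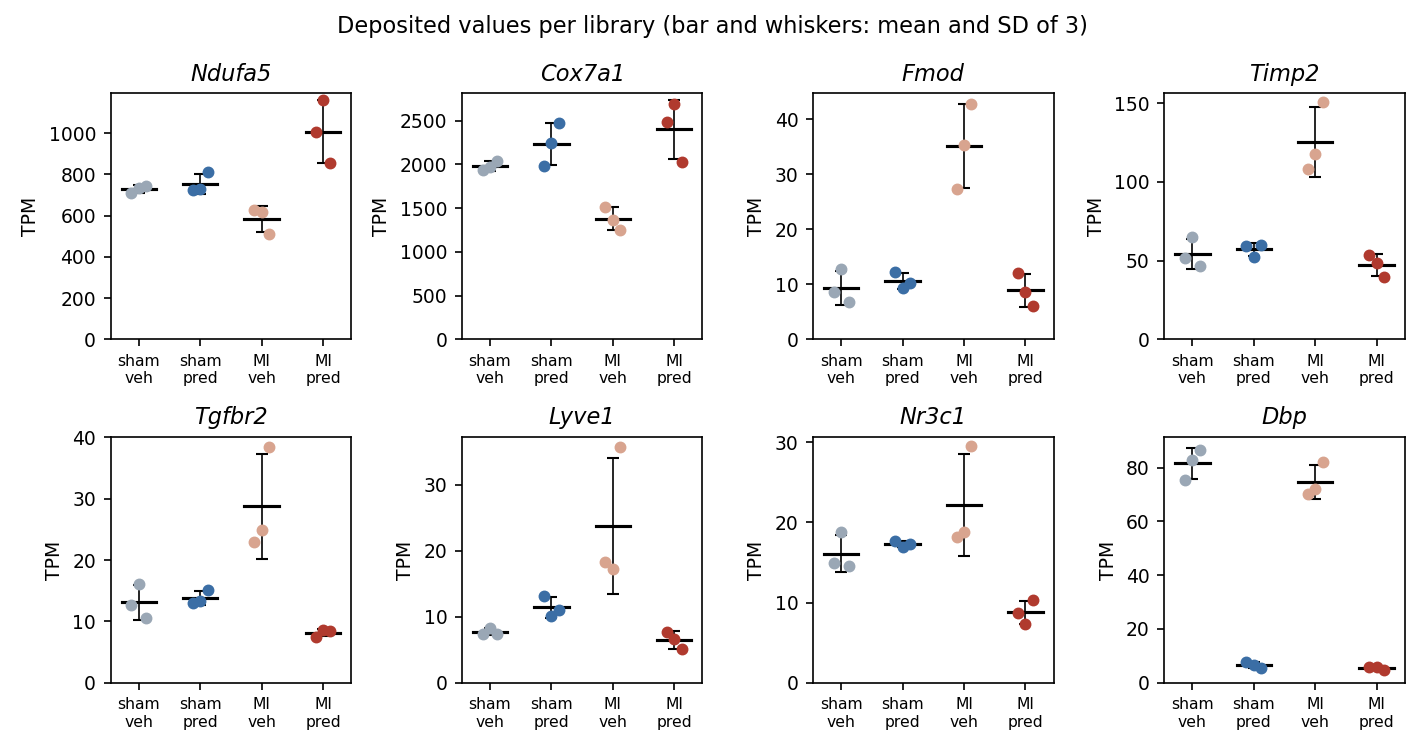
TPM of 8 genes in each library (points), with the mean and SD of 3 libraries (bar and whiskers), for the 4 groups; each y axis starts at 0. Ndufa5 and Cox7a1 are higher and Nr3c1 lower in MI prednisone than in MI vehicle, Fmod, Timp2, Tgfbr2 and Lyve1 are highest in MI vehicle, and Dbp falls with prednisone after either surgery.

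Of the 41 lists, those with the most higher genes were both lists of the nuclear-encoded respiratory chain, the enzymes of the inner mitochondrial membrane that pass electrons to oxygen and make ATP. Complex I, the NADH dehydrogenase, had 21 of 36 tested subunits higher and none lower, and complexes II to V together had 18 of 40 higher and none lower. Over all genes 4.14% were higher and 4.83% lower. Without centring the medians stayed positive, with 4 and 12 members higher and 1 member of complexes II to V lower. The shares of all genes were then 0.54% higher and 20.7% lower. The median interaction was 0.82 for complex I and 0.85 for complexes II to V. In sham hearts the median prednisone effect of both lists was close to 0 (0.00 and -0.01), and none of their members was called by limma or had an unadjusted p under 0.05. In infarcted hearts the medians were 0.80 and 0.86, and 34 of 36 and 36 of 40 members were called, all higher, where 13.8% of all genes were.

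The lists also moved between sham and infarcted hearts under vehicle. Between infarcted and sham hearts, 884 of all genes (6.72%) were called under vehicle, 468 higher (3.56%) and 416 lower (3.16%). Under prednisone 3326 (25.3%) were called, 1454 higher (11.1%) and 1872 lower (14.2%). Complex I had a median infarction effect of -0.56 with vehicle, with 12 members lower and none higher, and of 0.25 with prednisone, with 1 higher and 1 lower. Complexes II to V had -0.60 with vehicle, with 15 lower, and 0.24 with prednisone, with 1 higher and 2 lower. These are the same 4 group means read the other way, so they add no independent evidence for the interaction. The 10 cardiomyocyte markers had a similar order, with 9 positive interactions and a median of 0.66. Their median infarction effect was -0.74 with vehicle and -0.06 with prednisone. The part of the share of cardiomyocytes in the respiratory result was not tested.

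Ndufa5, an accessory subunit of complex I, was at 707, 732 and 744 TPM with vehicle and 722, 730.1 and 811 with prednisone after sham surgery, and at 628, 615 and 513 with vehicle and 1005, 1159 and 857 with prednisone after MI. All 3 MI prednisone libraries were above, and all 3 MI vehicle libraries below, the 6 sham libraries (interaction 1.19 ± 0.27 (SE), adjusted p = 0.0302). Ndufa3, of the same complex, was at 589.9, 579.7 and 589 TPM with vehicle and 594, 615 and 672 with prednisone after sham surgery, and at 520.2, 526 and 496 with vehicle and 905, 1065 and 719.9 with prednisone after MI and showed the same order of groups (interaction 1.15 ± 0.24 (SE), adjusted p = 0.0243). Cox5b, a subunit of cytochrome c oxidase (complex IV), was at 1341, 1226 and 1328 TPM with vehicle and 1296, 1357 and 1505 with prednisone after sham surgery, and at 1100.4, 1256 and 1162 with vehicle and 1808, 2342 and 1852 with prednisone after MI. Its MI prednisone libraries were again the highest 3 of the 12 (interaction 1.13 ± 0.23 (SE), adjusted p = 0.0225). Cox7a1, the heart and muscle form of another complex IV subunit, was at 1937, 1964 and 2040.0 TPM with vehicle and 1984, 2241 and 2468 with prednisone after sham surgery, and at 1515, 1363 and 1253 with vehicle and 2479.9, 2686 and 2029 with prednisone after MI. Here MI prednisone overlapped with the sham libraries but not with MI vehicle (interaction 1.09 ± 0.28 (SE), adjusted p = 0.0388). The remaining named members, Ndufv3 and Cox7b, had interactions of 1.03 and 1.09.

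Not all members had large values. Ndufs1, the largest core subunit of complex I, had an interaction of 0.14, Sdha, the catalytic subunit of complex II, 0.05, and Uqcrc2, a core protein of complex III, -0.03. These 3 were named after their values were seen. The 13 respiratory genes that mitochondrial DNA itself encodes had a median of 0.50 and none was called by limma (2 had an unadjusted p under 0.05, both higher). Their median is 0.04 without centring and -0.01 without the 3 libraries over 1000 TPM of lung markers. Genes of a nuclear copy of mitochondrial DNA took 15.3 to 20.3% of the MI prednisone libraries and 9.32 to 14.6% of the others. How reads were divided between that copy and the mitochondrial genes was not tested.

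Most of these subunits have short transcripts, with median lengths of 676 bases for complex I and 667 for complexes II to V against 2252 over all genes. When length and GC content were taken out of each library by a smooth curve, the list medians fell to 0.44 and 0.53. None of the members was then called by limma, with an unadjusted p under 0.05 in 4 of 27 and 6 of 38 members with a length. The number of calls depended on single libraries. It was 0 of the 76 members without sham vehicle replicate 1 or 3, sham prednisone replicate 1 or 2, or MI prednisone replicate 2. In those fits 62 to 65 members had an unadjusted p under 0.05. It was 2 to 5 without sham vehicle replicate 2, sham prednisone replicate 3 or MI prednisone replicate 1. Without MI vehicle replicates 1, 2 and 3 and MI prednisone replicate 3 it was 56, 34, 57 and 50. The lowest list medians over the fits that left out 1 library were 0.61 for complex I and 0.62 for complexes II to V. With the replicate number as a block, 3 members of each list were called. Without the 3 libraries over 1000 TPM of lung markers, the medians were 0.62 for complex I and 0.63 for complexes II to V. The part of transcript length in the result was otherwise not tested.

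The promoters of respiratory genes are known to hold sites for ERR, NRF1 and ETS-family factors, and since these genes moved together their promoters were searched for the plain letters of those sites. The windows are RefSeq promoters of GRCm38.p6, 250 bases before to 50 after each start. TNAAGGTCA stands for ERR, CGCATGCGC for NRF1 and CCGGAAG for the ETS family, each read on both strands, and different elements overlap in no printed window. Of the 39 called respiratory genes, 34 matched, with 37 windows. The ERR letters were in 1 of these windows (2.70%), the NRF1 letters in 4 (10.8%) and the ETS letters in 9 (24.3%). Over all 32851 windows the shares were 1.28%, 1.75% and 8.86%. Over the 67 windows of all tested respiratory members, called or not, they were 4.48%, 11.9% and 20.9%. The NRF1 letters were searched first in a longer form, which is these letters on both strands shifted by 1 base, and were shortened after that result was seen. The longer form was in 2 called windows (5.41%), in 5.97% of the windows of all tested members and in 0.971% of all windows. A match is a description of letters, not a site in use. Of the 5 called members with ERR or NRF1 letters, 3 are shown, chosen to include the ERR letters, the overlapping NRF1 form and the ETS letters, with the matched letters in capitals. The other two are Uqcr11 of complex III and Atp5l of ATP synthase, both with NRF1 letters. The windows belong to Ndufa11 (chr17:56717512-56717811, plus strand) and Ndufb4 (chr16:37654319-37654618, minus strand) of complex I, and Atp5k (chr5:108434350-108434649, minus strand), a subunit of ATP synthase. Their interactions were 0.82, 0.99 and 1.06.
Ndufa11: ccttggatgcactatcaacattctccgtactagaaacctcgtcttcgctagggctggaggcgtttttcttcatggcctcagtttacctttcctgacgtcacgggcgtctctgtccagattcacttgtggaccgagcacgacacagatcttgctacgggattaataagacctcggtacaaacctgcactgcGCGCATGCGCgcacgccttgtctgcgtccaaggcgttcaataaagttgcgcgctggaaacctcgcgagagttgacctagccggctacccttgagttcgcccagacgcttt
Ndufb4: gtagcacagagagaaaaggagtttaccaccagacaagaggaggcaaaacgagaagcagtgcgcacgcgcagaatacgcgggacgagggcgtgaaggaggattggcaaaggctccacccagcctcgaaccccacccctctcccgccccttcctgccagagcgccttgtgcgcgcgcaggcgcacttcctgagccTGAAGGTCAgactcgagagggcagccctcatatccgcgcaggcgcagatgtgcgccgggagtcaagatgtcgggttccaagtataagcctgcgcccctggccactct
Atp5k: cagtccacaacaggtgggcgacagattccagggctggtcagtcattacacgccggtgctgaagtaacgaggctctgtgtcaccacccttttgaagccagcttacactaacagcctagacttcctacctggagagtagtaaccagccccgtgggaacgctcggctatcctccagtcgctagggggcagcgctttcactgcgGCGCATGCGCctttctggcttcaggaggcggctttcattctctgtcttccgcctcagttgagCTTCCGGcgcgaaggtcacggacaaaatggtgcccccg
Ndufa11 and Atp5k hold the NRF1 letters on both strands in that overlapping form, Atp5k also holds the ETS letters in reverse complement nearer its start, and Ndufb4 holds the ERR letters.

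PGC-1 coactivators, ERR and PPAR receptors and related factors are known regulators of these genes. Of 12 tested, 2 were lower and none higher, against 4.83% and 4.14% of all genes, with a median of -0.30. Without the 3 libraries over 1000 TPM of lung markers the median was -0.38. Ppara, the nuclear receptor for fatty acid use, was at 8.98, 10.7 and 9.62 TPM with vehicle and 13.9, 15.3 and 15 with prednisone after sham surgery, and at 9.87, 13.2 and 11.5 with vehicle and 2.25, 2.85 and 5.38 with prednisone after MI. Prednisone libraries were the highest after sham surgery and the lowest after infarction, without overlap (interaction -1.62 ± 0.33 (SE), adjusted p = 0.0237). Gabpa, the ETS-family factor of respiratory promoters, was lower as well (interaction -1.12 ± 0.20 (SE), adjusted p = 0.0164), at 5.57 to 7.22 TPM in MI prednisone and 13.4 to 21 in the other 9 libraries. Ppargc1a, the coactivator PGC-1 alpha, was at 14.2, 15.4 and 18.3 TPM with vehicle and 19, 20.1 and 21.2 with prednisone after sham surgery, and at 12, 13.8 and 10.6 with vehicle and 5.00, 4.39 and 8.08 with prednisone after MI. Its interaction missed the threshold (interaction -0.83 ± 0.35 (SE), adjusted p = 0.151). It was -1.23 without the 3 libraries over 1000 TPM of lung markers, where MI prednisone is replicate 1 alone. Esrra and Nrf1 had interactions of 0.32 and -0.35, and neither was called.

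**Figure D3:**
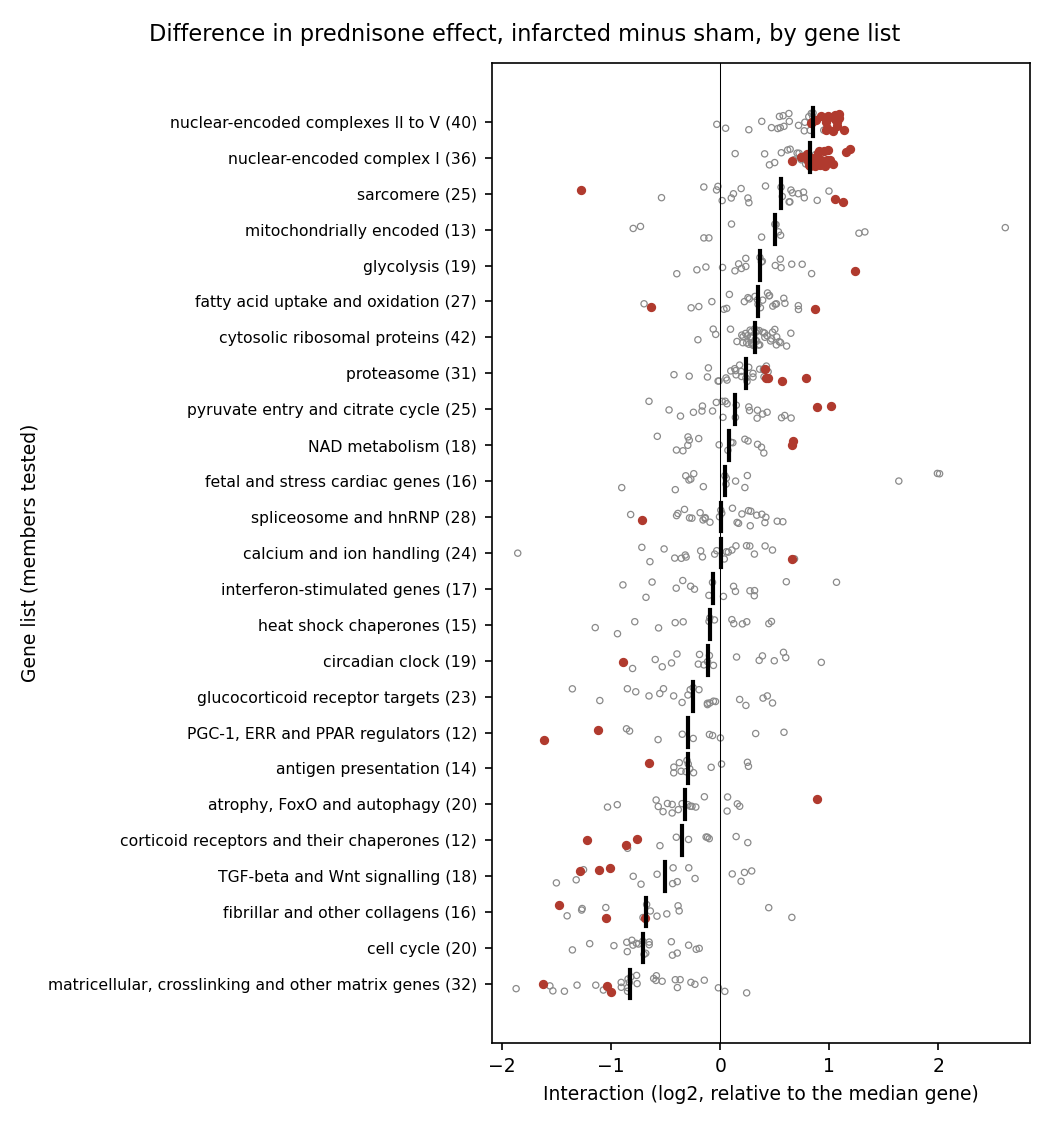
Interaction of each tested member (points) of 25 gene lists, log2 relative to the median gene, with called members filled in red and the list median as a black bar; the number tested is in parentheses. Both lists of nuclear-encoded respiratory subunits lie to the right with medians of 0.82 and 0.85, and matrix, cell cycle and collagen genes to the left with medians of -0.83, -0.70 and -0.68.

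Other metabolic and contractile lists had few called members. Over all genes 4.14% were called higher and 4.83% lower. Fatty acid uptake and oxidation had 1 of 27 genes higher and 1 lower (median 0.35, and -0.12 without centring). Without the 3 libraries over 1000 TPM of lung markers the median was 0.03. Acaa2, the last enzyme of the beta-oxidation spiral, was the higher one (0.87 ± 0.23, SE). Cpt1a, an enzyme needed for the entry of fatty acids into mitochondria, was the lower one (interaction -0.63 ± 0.17 (SE), adjusted p = 0.0468). It was at 6.42 to 7.73 TPM in MI prednisone and 11 to 26.5 elsewhere. Pyruvate entry and the citrate cycle had 2 of 25 higher (median 0.14, and -0.33 without centring). The median turned to -0.17 without those 3 libraries, and to -0.03 without MI vehicle replicate 3 alone. Mpc2, a subunit of the mitochondrial pyruvate carrier, was at 309, 316 and 312 TPM with vehicle and 292, 328 and 347 with prednisone after sham surgery, and at 256, 254 and 263 with vehicle and 419.8, 424 and 328 with prednisone after MI (interaction 1.01 ± 0.20 (SE), adjusted p = 0.0218), and its partner Mpc1 missed the threshold (interaction 0.65 ± 0.21 (SE), adjusted p = 0.0773). In NAD metabolism 2 of 18 were higher, among them Naprt (0.66). The median was 0.08, -0.38 without centring and -0.05 without those 3 libraries. Nampt, the rate-limiting enzyme of NAD salvage, was not called (interaction -0.30 ± 0.18 (SE), adjusted p = 0.314).

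The sarcomere list had 2 of 25 higher and 1 lower, against 4.14% and 4.83% of all genes. Its median of 0.56 was 0.09 without centring and 0.16 without the 3 libraries over 1000 TPM of lung markers. Tnni3, cardiac troponin I, was at 3981, 4099.5 and 4239.7 TPM with vehicle and 3992, 4124 and 4827 with prednisone after sham surgery, and at 3261, 2919 and 2455 with vehicle and 4786, 5455 and 4100.2 with prednisone after MI, with the MI vehicle libraries below the 6 sham libraries (interaction 1.13 ± 0.31 (SE), adjusted p = 0.0479). Tcap, which caps titin at the Z-disc, was at 1825, 1789 and 1874 TPM with vehicle and 673, 587 and 621 with prednisone after sham surgery, and at 1411, 1395 and 1149.6 with vehicle and 672, 813 and 565 with prednisone after MI. It fell by 1.62 with prednisone in sham hearts, from a higher starting level, and all 6 prednisone libraries were below all 6 vehicle libraries. The fall of 0.57 in infarcted hearts was not called (adjusted p = 0.0627, limma), and the interaction was just past the threshold (interaction 1.05 ± 0.29 (SE), adjusted p = 0.0484). Nebl, a nebulin-related Z-disc protein, was lower (interaction -1.28 ± 0.33 (SE), adjusted p = 0.0392), at 20.5 to 41.3 TPM in MI prednisone and 71.3 to 101 elsewhere. Fetal and stress genes had none of 16 called by limma (2 higher and 1 lower at an unadjusted p under 0.05), with a median of 0.05 that turned to -0.42 without centring. Nppa, encoding atrial natriuretic peptide, was raised in both infarcted groups and overlapped between them (2049.7 to 3228 TPM with vehicle and 2837 to 4251 with prednisone). The 10 atrial markers, Nppa included, summed to 4401 to 6230 TPM in MI prednisone and 896 to 4160 in the other 9 libraries, and their part in the results was not tested.

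The lists of ribosomal proteins and proteasome subunits had medians whose direction turned without centring. None of 42 cytosolic ribosomal protein genes was called by limma (12 were higher at an unadjusted p under 0.05). Their median of 0.32 became -0.15 without centring and 0.58 without the 3 libraries over 1000 TPM of lung markers. The proteasome had 5 of 31 higher, where 4.14% of all genes were. Its median of 0.24 became -0.23 without centring and 0.22 without those 3 libraries. The largest of its named members was Psma3 at 0.79, and its MI groups overlapped. Map1lc3a, an autophagosome protein, was the 1 higher gene of 20 in the atrophy and autophagy list (0.88, with none lower and a list median of -0.32).

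Most extracellular matrix genes had negative interactions, and few were called. The median interaction was -0.83 over 32 matricellular and crosslinking genes, with 30 negative and 3 called, all lower, and -0.68 over 16 collagens, with 14 negative and 3 called, all lower. Over all genes 4.83% were lower. Without centring 20 of the 32 and 11 of the 16 were lower, against 20.7% of all genes. Under vehicle, 23 of the 32 matrix genes and 10 of the 16 collagens were higher after infarction, where 3.56% of all genes were. Under prednisone 13 and 3 were higher, where 11.1% of all genes were. In infarcted hearts 16 of the 32 and 9 of the 16 were lower with prednisone than with vehicle, with 1 collagen higher. Of all genes 14% were lower and 13.8% higher in that comparison. In sham hearts none was called by limma, with 3 matrix genes and no collagen at an unadjusted p under 0.05. Fewer matrix-producing cells and less RNA per cell cannot be told apart in these bulk samples.

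Col3a1, a fibrillar collagen of scar, was at 74.3, 86.1 and 52.7 TPM with vehicle and 93.3, 82.6 and 98.3 with prednisone after sham surgery, and at 186, 280.2 and 225 with vehicle and 94.6, 82.2 and 57.5 with prednisone after MI. The MI vehicle libraries were the highest 3 and the other 9 overlapped (interaction -1.48 ± 0.31 (SE), adjusted p = 0.0252). Fmod, a proteoglycan that binds collagen fibrils, was at 8.56, 12.7 and 6.77 TPM with vehicle and 12.2, 9.32 and 10.2 with prednisone after sham surgery, and at 27.4, 35.4 and 42.7 with vehicle and 12, 8.63 and 6.08 with prednisone after MI, again with only MI vehicle apart (interaction -1.62 ± 0.30 (SE), adjusted p = 0.018). Timp2, an inhibitor of matrix metalloproteinases, was at 51.4, 65.1 and 46.4 TPM with vehicle and 59, 52.2 and 59.9 with prednisone after sham surgery, and at 108, 118 and 151 with vehicle and 53.3, 48.5 and 39.8 with prednisone after MI, and it was called in all 12 fits that left out 1 library (interaction -1.01 ± 0.16 (SE), adjusted p = 0.0108). Mmp14, a membrane-bound metalloproteinase, had an interaction of -1.03, Col18a1, a basement-membrane collagen, -1.04, and Col6a2, a microfibrillar collagen, -0.69.

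Col1a1, Postn and Timp1, which infarction raised under vehicle, were not called for the interaction. Col1a1, a chain of type I collagen, was at 13.9, 16.9 and 11.8 TPM with vehicle and 16, 13.6 and 15.9 with prednisone after sham surgery, and at 40.1, 89.5 and 44.1 with vehicle and 20.7, 15.7 and 14.4 with prednisone after MI, with MI vehicle highest in all 3 mice, and its interaction missed the threshold (interaction -1.27 ± 0.42 (SE), adjusted p = 0.0813). Postn, a marker of activated fibroblasts, was at 12.6, 17.3 and 13.2 TPM with vehicle and 15.3, 13.1 and 15.1 with prednisone after sham surgery, and at 44, 119 and 76.4 with vehicle and 79, 57.5 and 37.9 with prednisone after MI. Its 2 MI groups overlapped and both lay above all sham libraries (interaction 0.04 ± 0.45 (SE), adjusted p = 0.964). Timp1 was likewise above sham in both MI groups and overlapped between them (interaction -0.85 ± 0.74 (SE), adjusted p = 0.491). The number of called matrix genes rose to 12, and of collagens to 8 lower and 1 higher, without MI vehicle replicate 3, when 10.9% of all genes passed. The 10 fibroblast markers, of which 5 are also in the matrix or collagen lists, summed to 1825 to 2074 TPM in MI vehicle, 827 to 1350 in MI prednisone and 973 to 1273 in the sham libraries, and 1 of them (Col3a1) was called. The part of the number of fibroblasts was not tested.

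The TGF-beta and Wnt pathways are known to drive fibroblasts toward scar formation. Of 18 genes of these pathways, 3 were lower and none higher, against 4.83% and 4.14% of all genes. The median was -0.51. Without centring 7 of the 18 were lower, against 20.7% of all genes. Tgfbr2, the type II TGF-beta receptor, was at 12.8, 16.1 and 10.5 TPM with vehicle and 13.1, 13.3 and 15.1 with prednisone after sham surgery, and at 22.9, 24.9 and 38.5 with vehicle and 7.53, 8.59 and 8.4 with prednisone after MI. MI vehicle was above and MI prednisone below all 6 sham libraries, and the call held in all 12 leave-out fits (interaction -1.28 ± 0.15 (SE), adjusted p = 0.00563). The other two were Tgfbr1, the type I receptor (-1.01), and Fzd1, a Wnt receptor (-1.11), chosen for naming after their values were seen. The ligands Tgfb1, Tgfb2 and Tgfb3 had interactions of -0.43, 0.11 and -0.58, and none was called.

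Nr3c1, the gene of the glucocorticoid receptor, was lower. It was at 14.9, 18.8 and 14.6 TPM with vehicle and 17.7, 16.9 and 17.3 with prednisone after sham surgery, and at 18.2, 18.8 and 29.5 with vehicle and 8.72, 7.32 and 10.3 with prednisone after MI. The 3 MI prednisone libraries were below the other 9, and the prednisone effect was -0.83 in infarcted and 0.03 in sham hearts (interaction -0.87 ± 0.18 (SE), adjusted p = 0.0243). Of 12 genes for corticoid receptors, their coregulators and chaperones, 3 were lower and none higher, against 4.83% and 4.14% of all genes. The other two were the coactivator Ncoa2 (interaction -1.22 ± 0.26 (SE), adjusted p = 0.0264) and the corepressor Ncor1 (interaction -0.76 ± 0.19 (SE), adjusted p = 0.0373). Of 23 glucocorticoid receptor targets, none was called by limma, where 8.97% of all genes were, so the count is near that share. At an unadjusted p under 0.05 there were 4, all lower, and the median was -0.25. When the 3 libraries over 1000 TPM of lung markers were left out, the median was -0.19.

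Among the targets, Fkbp5, a receptor co-chaperone that the receptor induces, was at 3.5, 5.51 and 4.73 TPM with vehicle and 5.09, 7.63 and 5.34 with prednisone after sham surgery, and at 7.4, 7.82 and 32.7 with vehicle and 3.81, 3.46 and 4.23 with prednisone after MI. MI vehicle replicate 3 stood at 32.7 TPM and every other library at 7.82 or less, and the interaction missed the threshold (interaction -1.36 ± 0.47 (SE), adjusted p = 0.0938). Klf9, a transcription factor induced by the receptor, was at 7.11 to 16.1 TPM in MI prednisone and 25 to 39.9 elsewhere (interaction -1.10 ± 0.38 (SE), adjusted p = 0.0895). Its interaction was -1.46 without the 3 libraries over 1000 TPM of lung markers, where MI prednisone is replicate 1 alone. Per1 fell in infarcted hearts by 1.26 and had an effect of -1.20 in sham hearts that was not called (interaction -0.06 ± 0.49 (SE), adjusted p = 0.952). Tsc22d3, which encodes the anti-inflammatory protein GILZ, was near 0 (interaction -0.10 ± 0.26 (SE), adjusted p = 0.85), as were Klf15 (0.18) and Zbtb16 (-0.04). Cdkn1a, a cell cycle inhibitor, was at 6.74, 9.2 and 9.21 TPM with vehicle and 21, 25 and 16.6 with prednisone after sham surgery, and at 16.4, 28.9 and 30.5 with vehicle and 20.4, 20.9 and 27.5 with prednisone after MI: it was lowest in sham vehicle, and the other 3 groups overlapped (interaction -0.85 ± 0.31 (SE), adjusted p = 0.104).

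Markers of endocardium and lymphatic vessels, mesothelium and macrophages also had lower interactions. All 8 endocardial and lymphatic markers were negative (median -0.72), and 3 were called: Lyve1, a hyaluronan receptor of lymphatic endothelium and some resident macrophages, Plvap (-1.07) and Mmrn1 (-1.47). Lyve1 was at 7.44, 8.32 and 7.43 TPM with vehicle and 13.1, 10.1 and 11 with prednisone after sham surgery, and at 18.3, 17.3 and 35.7 with vehicle and 7.7, 6.63 and 5.1 with prednisone after MI. MI vehicle was above all other libraries (interaction -1.71 ± 0.22 (SE), adjusted p = 0.00749), and the gene was called in all 12 leave-out fits. The 8 markers summed to 220 to 477 TPM in MI vehicle and 77.7 to 172 in the other 9 libraries. Mesothelial and epicardial markers had 2 of 8 lower (median -1.09), Lrrn4 (-1.92) and Wt1 (-0.98). The sum of these 8 was 103 to 291 TPM in MI vehicle and 32.6 to 79.5 in the sham libraries. In MI prednisone replicates 1, 2 and 3 it was 44.5, 178 and 34.8, so the MI groups overlapped. Macrophage markers had 2 of 16 lower (median -0.44), Csf1r, the receptor for the macrophage growth factor CSF-1 (interaction -0.87 ± 0.20 (SE), adjusted p = 0.0322), and Itgam (-1.09). Their sum was 836 to 1786 TPM in MI vehicle, 439 to 773 in MI prednisone and 384 to 569 in the sham libraries. Over all genes 4.83% were called lower with all 12 libraries. The lung holds macrophages and endothelium too. Without the 3 libraries over 1000 TPM of lung markers the medians were -0.70 for endocardial and lymphatic, -1.12 for mesothelial and -0.23 for macrophage markers.

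General endothelial markers split, with Egfl7, a protein secreted by endothelium, higher (interaction 1.31 ± 0.31 (SE), adjusted p = 0.0316), Tek, the angiopoietin receptor, lower (interaction -0.56 ± 0.12 (SE), adjusted p = 0.0259), and a median of -0.06 over 12. Smooth muscle and pericyte markers had 1 of 10 called, Cspg4 (1.15), where 8.97% of all genes were. Cell cycle genes were negative in 20 of 20 (median -0.70), but none was called by limma, 1 had an unadjusted p under 0.05, and the median was -0.02 without MI vehicle replicate 3 and 0.01 without the 3 libraries over 1000 TPM of lung markers. Lymphocyte markers ranged from 77.4 to 5913 TPM in summed level within MI vehicle alone, and none of 12 was called by limma or had an unadjusted p under 0.05. Adipocyte markers were positive in 9 of 9 (median 1.12), none was called by limma and 1 had an unadjusted p under 0.05. The median turned to -0.50 at the lowest when 1 library was left out.

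The most stable lower genes covered secreted, immune and intracellular proteins. Pakap (chr4:57568179-57896982, GRCm38), a locus that joins Palm2 and Akap2, which encodes an anchor of protein kinase A, was at 5.32, 6.19 and 5.46 TPM with vehicle and 7.68, 6.11 and 6.62 with prednisone after sham surgery, and at 7.01, 8.62 and 7.44 with vehicle and 0.126, 0.397 and 1.11 with prednisone after MI. It was nearly lost in MI prednisone and otherwise similar in the 3 other groups (interaction -2.30 ± 0.33 (SE), adjusted p = 0.00866), and reads shared with the overlapping genes could have been split by the quantification. Olfr1033 (chr2:86020633-86045171), an olfactory receptor locus, was at 243, 290.0 and 167 TPM with vehicle and 349.7, 310.1 and 300.3 with prednisone after sham surgery, and at 592, 749.6 and 777 with vehicle and 166, 198 and 122 with prednisone after MI. Cd300ld3 (chr11:115042131-115048409), an immune receptor of a multigene family, was at 6.75, 6.05 and 5.02 TPM with vehicle and 9.34, 6.1 and 7.65 with prednisone after sham surgery, and at 11.1, 13.6 and 17.5 with vehicle and 3.71, 2.48 and 1.62 with prednisone after MI. For both, MI vehicle was highest in every mouse and MI prednisone the lowest by mean (interaction -2.16 ± 0.27 (SE), adjusted p = 0.00669 and interaction -1.93 ± 0.28 (SE), adjusted p = 0.00866). Their family members share sequence, so these values are uncertain.

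Prss23 (chr7:89507783-89527187), a secreted serine protease, was at 10.3, 18.5 and 10.1 TPM with vehicle and 19.1, 14.8 and 16.5 with prednisone after sham surgery, and at 27.5, 38.5 and 43.6 with vehicle and 8.96, 9.6 and 7.04 with prednisone after MI (interaction -1.90 ± 0.26 (SE), adjusted p = 0.00749). MI vehicle was above all sham libraries and MI prednisone below them. Of the rest described here, apart from Lyve1, all were intracellular: B3gnt2, a glycosyltransferase (-1.68), Kif5b, a kinesin motor (-1.60), Foxn3, a forkhead repressor (-1.51), Aff4, a scaffold of transcription elongation (-1.47), Tnpo1, a nuclear importer (-1.46), and Akap13, an anchor of protein kinase A (-1.46). For these 6 the MI prednisone libraries were below the other 9. With only protein-coding transcripts counted, 11 of the 12 lower genes were called in the same direction, and Foxn3 was not (-1.46, adjusted p = 0.0581 by limma). That count leaves out transcripts without a versioned ID in GENCODE, whose class is unknown. The other transcripts of Foxn3 held most of its TPM. They were lower too, at a mean of 2.47 TPM in MI prednisone against 11.5 in MI vehicle.

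The most stable higher genes behaved differently when their transcripts were separated. Other transcripts are here all those not matched as protein-coding, including any without a versioned ID in GENCODE. Lama5 (chr2:180176373-180225859), the laminin alpha 5 chain of basement membranes, was at 17.6, 10.8 and 13.3 TPM with vehicle and 15.1, 14.8 and 13.8 with prednisone after sham surgery, and at 8.67, 8.95 and 7.12 with vehicle and 31.9, 43.6 and 28.9 with prednisone after MI in total (interaction 2.31 ± 0.34 (SE), adjusted p = 0.00902). Its protein-coding transcript was at 9.03, 9.59 and 8.41 TPM with vehicle and 11.2, 12 and 10.8 with prednisone after sham surgery, and at 6.74, 6.63 and 5.74 with vehicle and 5.67, 8.6 and 7.34 with prednisone after MI, and its other transcripts were at 8.6, 1.2 and 4.86 TPM with vehicle and 3.9, 2.8 and 3.00 with prednisone after sham surgery, and at 1.93, 2.33 and 1.38 with vehicle and 26.2, 35 and 21.6 with prednisone after MI. The higher values in MI prednisone were in the other transcripts, and with protein-coding transcripts only the interaction was 0.36 (adjusted p = 0.377 by limma). Hspg2 (chr4:137468769-137570630), the heparan sulfate proteoglycan perlecan, was at 42.5, 43.2 and 44.8 TPM with vehicle and 40.3, 41 and 41.7 with prednisone after sham surgery, and at 41.2, 53.9 and 39.9 with vehicle and 103, 98.4 and 92.3 with prednisone after MI (interaction 1.66 ± 0.26 (SE), adjusted p = 0.0104). Its coding transcripts stood between 19.4 and 26.8 TPM in all 12 libraries, and its 1 other transcript at 21, 16.7 and 24.3 TPM with vehicle and 15.5, 14.2 and 20.1 with prednisone after sham surgery, and at 18.7, 28.4 and 19.3 with vehicle and 83.5, 78 and 70.5 with prednisone after MI.

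Itga6 (chr2:71745616-71858416), the integrin alpha 6 subunit that binds laminins, went in opposite directions. Its total was at 181, 189.9 and 179 TPM with vehicle and 186, 163 and 174 with prednisone after sham surgery, and at 146, 157 and 136 with vehicle and 260.3, 314 and 236 with prednisone after MI (interaction 1.41 ± 0.23 (SE), adjusted p = 0.0129). Its coding transcripts were at 7.86, 10.4 and 8.3 TPM with vehicle and 11.3, 11.8 and 11.3 with prednisone after sham surgery, and at 13.7, 15.2 and 20.5 with vehicle and 3.82, 4.44 and 6.55 with prednisone after MI, lowest in MI prednisone and highest in MI vehicle, with an interaction of -1.39 (adjusted p = 0.00717 by limma). Of the 12 highest genes, 4 were called higher with coding transcripts only: Mcm3ap, a nuclear export scaffold (1.09), Kank3, an endothelial cytoskeletal adaptor (1.36), Prpf40b, a splicing factor (1.27), and Pcgf1, a Polycomb subunit (0.91). Another 3 were called lower, Itga6, Mroh1 (-0.65) and Ipo4, a nuclear importer (-0.63). The other members of the 12 were Eftud2, a spliceosome GTPase, Ubr4, a ubiquitin ligase, and Tpr, a nuclear pore protein.

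**Figure D4:**
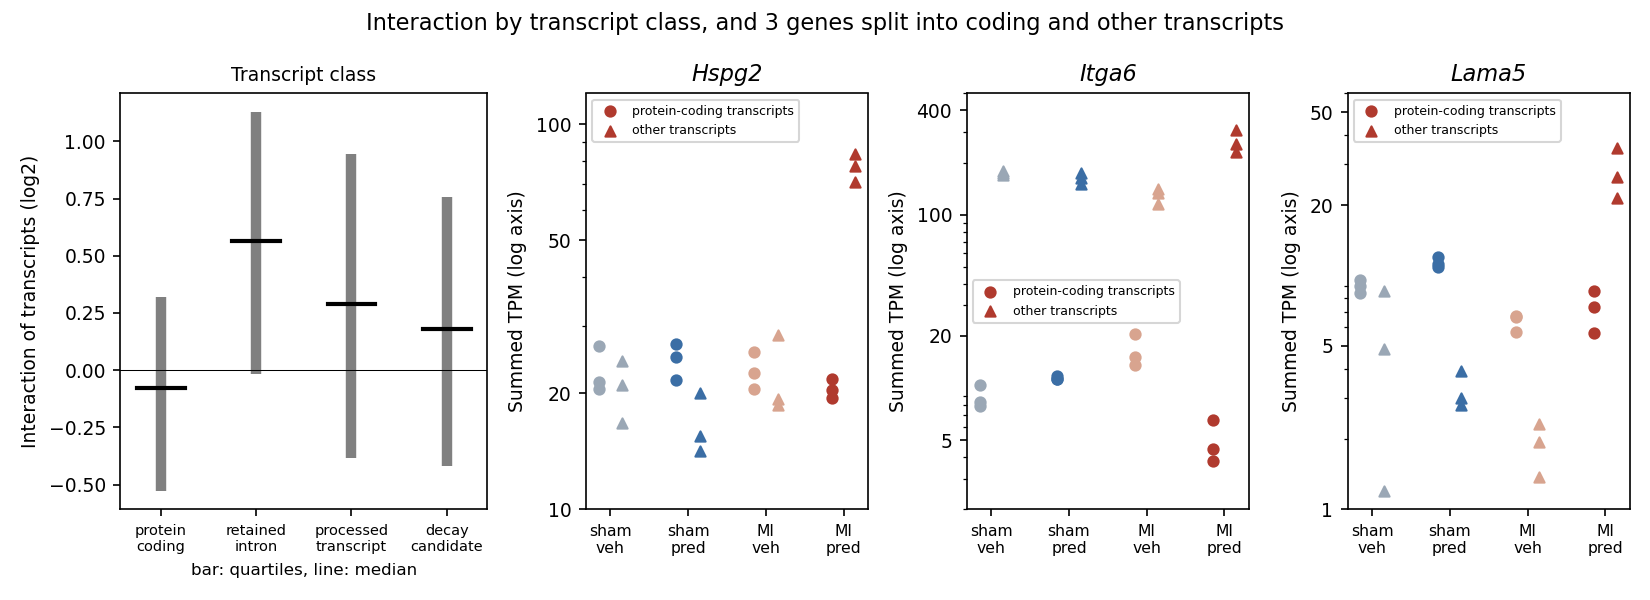
Left, interaction of single transcripts by GENCODE class (bar: quartiles, line: median; 18137 coding, 2983 retained-intron, 2427 processed and 1269 nonsense-mediated decay candidate transcripts); right, summed TPM on a log axis of the coding (circles) and other (triangles) transcripts of 3 genes in each library. The other transcripts of Hspg2, Itga6 and Lama5 are highest in MI prednisone, and the coding ones are not.

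The split was seen across the table. Of 27769 transcripts tested singly, 3529 passed (12.7%), 1732 higher (6.24%) and 1797 lower (6.47%). The median interaction was 0.57 for retained-intron transcripts, of which 14.5% were higher and 2.98% lower, and -0.08 for protein-coding transcripts, of which 4.32% were higher and 7.66% lower. Processed transcripts had a median of 0.29 and candidates for nonsense-mediated decay 0.18. Retained-intron transcripts took 4.0 to 5.2% of the TPM of these 4 classes (mitochondrially encoded transcripts left out) in the 3 MI prednisone libraries and 2.87 to 3.54% in the other 9. With protein-coding transcripts only, 1197 of 10576 genes passed (11.3%), 521 higher (4.93%) and 676 lower (6.39%). Of the 545 higher genes 460 could be tested so, of which 278 were called higher, 51 had the opposite sign and 10 were called lower. Of the 635 lower genes 548 could be tested, of which 406 were called lower, 17 had the opposite sign and none was called higher by limma. In that fit 19 of 29 tested complex I members and 22 of 39 of complexes II to V were higher. Hk2, hexokinase 2, the only called gene of the 19 of glycolysis (1.24 over all transcripts), was at -0.12 with coding transcripts. The glycolysis median of 0.36 turned to -0.10 without centring and was 0.10 without the 3 libraries over 1000 TPM of lung markers.

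**Figure D5:**
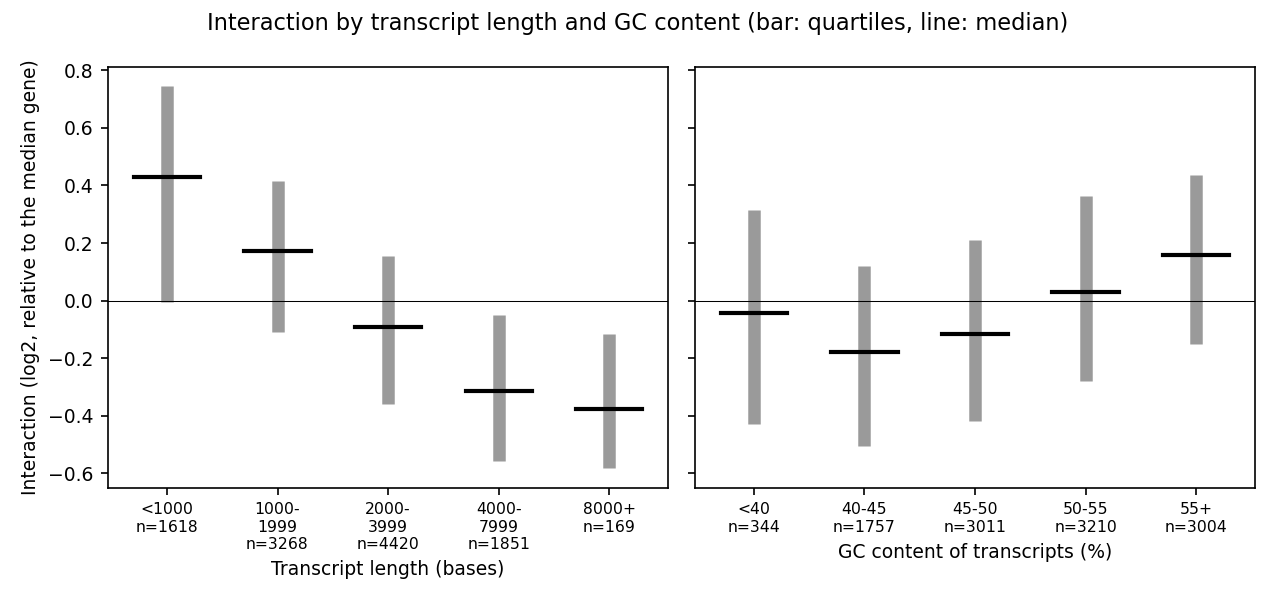
Interaction of 11326 genes by transcript length (left) and GC content (right), log2 relative to the median gene, with quartiles (grey bar) and median (black line) per bin and the number of genes under each. The median falls from 0.43 for transcripts under 1000 bases to -0.38 at 8000 bases or more, and rises from -0.18 at 40 to 45% GC to 0.16 at 55% or more.

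The interaction also followed transcript length. Across the 11326 genes with a length (86.1%), the Spearman rho was -0.44 with length and 0.24 with GC content, as a description across genes. The called higher genes had a median length of 1129 bases and the called lower genes 3843. The rho with length was -0.26 to -0.40 for the centred values of the 3 MI prednisone libraries and -0.12 to 0.24 for the other 9. After removal of length and GC trends 218 genes passed (1.92%), 80 higher (0.706%) and 138 lower (1.22%), and 209 of them were among the 1180. Among the genes that kept their call in that fit, Lama5 was at 2.43, Hspg2 1.74, Tpr 1.40, Timp2 -0.93, Tgfbr2 -1.06, Lyve1 -1.56, Prss23 -1.97 and Olfr1033 -2.45. Col3a1 (-1.33), Nr3c1 (-0.59), Ndufa5 (0.85) and Tnni3 (0.74) were no longer called. RNA integrity values are not given in the sources used here, and the part of RNA quality in the result was not tested.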

How the data were processed

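RNA was measured by RNA sequencing of stranded mRNA libraries in 12 samples of mouse myocardium, 4 groups of 3 taken from the titles. What the authors deposited is 1 table of TPM per transcript, with 105129 transcripts and 33641 gene symbols. Trimmomatic, HISAT2, kallisto and the build mm10 are named, without versions or roles, per the submitters' processing notes. TPM hold no depth, so counting error and detection floors are unknown, and precision rests on 3 libraries per group. TPM can also shift between transcripts of a gene and between long and short genes when coverage is uneven.

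Transcripts were summed by symbol. A gene was kept if it reached 1 TPM in 3 or more of the 12 libraries, and log2(TPM + 1) was centred by each library's median deviation from the gene means. The pseudocount of 1 understates changes of low genes. A model with a mean per group was fitted over all 12 libraries with limma 3.58.1 in R 4.3.3 (eBayes with trend), with Benjamini-Hochberg adjustment over all genes per contrast and calls at 0.05. The fit was tried on simulated data with independent noise and, for each gene, the same spread in all libraries. The real libraries differ in spread, so that trial does not show how the calls hold under such differences. Coordinates, lengths, GC content and classes come from the M21 release of GENCODE (build GRCm38), in which 94.7% of transcripts had their versioned ID. Transcripts without one had no class and were not counted as coding. The alternatives are described at the end. They included another scaling, filter and pseudocount, single transcripts, coding transcripts only, trends of length and GC, a replicate block and leaving out libraries.

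The question, the 41 gene lists and the genes were chosen with earlier results of these data known. Genes were named by rule: the 12 highest and 12 lowest genes called in all 12 leave-out fits, with a mean of 5 TPM or more (no predicted genes, pseudogenes, mitochondrial or haemoglobin genes), 25 fixed genes, up to 3 called members per list at the same mean, and marker genes. The counts include 1 of the 12 lowest genes, which is not reported here. Other genes were chosen after their values were seen: those called in sham hearts, and the uncalled or additional list members given as examples. The NRF1 promoter letters were shortened after a first search was seen, and both results are given. A check of whether replicate numbers pair the mice found a mean correlation of deviations of -0.08 for equal numbers (18 pairs, -0.58 to 0.28) and 0.04 for different numbers, and the labels tie the numbers to nothing shared.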

Additional observations from a re-analysis of the deposited data

Results flagged for a closer look

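The prednisone effect differed between infarcted and sham hearts for 1180 of 13158 genes by the interaction test of limma, at an adjusted p under 0.05. Among the named genes, 65 had such a difference, and the interactions of those given here follow, on the log2 scale relative to the median gene.

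Among the genes called in every leave-out fit, the higher ones were Lama5 2.31, Hspg2 1.66, Mroh1 1.64, Eftud2 1.41, Itga6 1.41, Mcm3ap 1.39, Ubr4 1.34, Ipo4 1.22, Kank3 1.20, Prpf40b 1.17, Pcgf1 1.12 and Tpr 1.10. The lower ones given here were Pakap -2.30, Olfr1033 -2.16, Cd300ld3 -1.93, Prss23 -1.90, Lyve1 -1.71, B3gnt2 -1.68, Kif5b -1.60, Foxn3 -1.51, Aff4 -1.47, Tnpo1 -1.46 and Akap13 -1.46. Of these higher genes, 4 of 12 were called in the same direction with coding transcripts only, against 11 of 12 of the lower ones.

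Among the members of the gene lists and the fixed genes, the higher ones were Egfl7 1.31, Hk2 1.24, Ndufa5 1.19, Ndufa3 1.15, Cox5b 1.13, Tnni3 1.13, Cox7a1 1.09, Cox7b 1.09, Tcap 1.05, Ndufv3 1.03, Mpc2 1.01, Fh1 0.89, Map1lc3a 0.88, Acaa2 0.87, Psma3 0.79, Naprt 0.66, Kcnh2 0.66, Psmd4 0.56 and Psmb2 0.43. The lower ones were Lrrn4 -1.92, Fmod -1.62, Ppara -1.62, Col3a1 -1.48, Tgfbr2 -1.28, Nebl -1.28, Ncoa2 -1.22, Gabpa -1.12, Plvap -1.07, Col18a1 -1.04, Mmp14 -1.03, Timp2 -1.01, Wt1 -0.98, Clock -0.89, Nr3c1 -0.87, Csf1r -0.87, Ncor1 -0.76, Hnrnpk -0.72, Col6a2 -0.69, Tapbp -0.65, Cpt1a -0.63 and Tek -0.56. No group of this design had the 4 samples that a test for an outlying sample needs.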

How the results depend on the processing

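The precision of the interaction rests on 3 libraries per group, and the depth behind each TPM value is unknown. Against 1180 called genes, 2797 passed without centring (703 of them shared), 589 without the filter on low values, 3410 with array weights, in which MI vehicle replicate 3 had a weight of 0.15, and 3529 of 27769 when each transcript was tested. Correction for length left 232 and for length and GC 218. Median-ratio rescaling (1141), a mean of at least 5 TPM (1246), a pseudocount of 0.1 (1262), no trend (973), removal of mitochondrial, nuclear-copy and haemoglobin genes (1192), only genes with a length (983) and coding transcripts only (1197) stayed within 1.5 times the number. Leaving out each library in turn gave 156 to 2162. Without the 3 libraries over 1000 TPM of lung markers 2079 passed, and without the 2 over 5000 TPM 839, both chosen after seeing the data, as were the GC, length-only-gene and coding alternatives. The fit without the 3 libraries holds 1 MI prednisone library, so its number does not reflect the spread among MI prednisone mice. The causes of these changes were not tested.

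The replicate numbers belong to different mice and did not pair them. With the replicate block 422 genes passed, with the block and length 103, and with the block, length and GC 104. Under the block, 25 of the 65 named calls were lost and none changed sign.

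Prednisone in infarcted hearts gave 3659 calls and 2126 to 3861 with 1 library left out. In sham hearts it gave 12, 6 with the block and 4 to 22 with 1 library left out. Infarction under vehicle gave 884, 2100 without centring, 245 with the block and 0 to 1759 with 1 library left out. The 0 of limma came without sham vehicle replicate 1 or 3, with 2852 and 2401 genes at an unadjusted p under 0.05. Infarction under prednisone gave 3326, 2213 without centring and 1459 to 4639 with 1 library left out.

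Among single called genes, the sign turned without centring for Psmb2 (-0.031). Among named genes that were not called it turned for 7: Dbp (-0.08), Nfil3 (-0.11), Nppa (-0.22), Klf15 (-0.29), Acta1 (-0.32), Postn (-0.42) and Nppb (-0.42). With coding transcripts only the sign of called genes turned for Mroh1 (-0.65), Itga6 (-1.39), Ubr4 (-0.10), Ipo4 (-0.63) and Hk2 (-0.12). With the most abundant transcript alone it turned for Mroh1 (-0.82), Eftud2 (-0.38), Mcm3ap (-0.15), Ipo4 (-0.68), Pcgf1 (-1.05), Tpr (-0.79), Ncor1 (0.31), Hk2 (-0.19), Psma3 (-0.077) and Tapbp (0.0088).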
